A study of Homo sapiens with 3 samples.

Results

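The 437 circular RNAs (circRNAs) of chromosome 10 were taken as every circRNA whose contig was chr10, of 10562 circRNAs listed over all contigs, and were read in order of their hg19 position. They came from 181 of the 4231 host genes, and 11 of them had no annotated host gene. The study compared 3 human cell lines with 1 library each: J82 and T24, classed as bladder cancer lines by the labels, and SV-HUC-1, an immortalized urothelial line. The labels record no treatment, time or genetic change that sets a line apart. Each library was made from RNA digested with RNase R, an exonuclease that removes most linear RNA, so little is known here of the linear transcripts of the same genes. A single library per line leaves no spread between replicates, so differences between 2 lines lack a replicate check. The chromosome was chosen by its host gene folds in J82 and T24, so all counts and folds below are descriptions of 3 libraries.

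A circRNA forms when the splicing machinery joins a downstream splice donor to an upstream splice acceptor of the same transcript, a reaction called back-splicing. The closed ring has no ends, which is why it outlasts linear RNA in RNase R. Each circRNA is recognised by reads across its back-splice junction, and 1 host gene can give several circRNAs that share a junction end. Chromosome 10 carries the growth factor receptor gene FGFR2 on its long arm (10q) and ZEB1, a repressor of epithelial genes, on its short arm (10p). Loss of the long arm has been described in bladder tumours.

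The promoters of 5 host genes are shown because their circRNAs carried the main patterns below: GFRA1 had the highest fold in J82, FGFR2 the lowest in T24, DHTKD1 and OPTN lay in the stretch of 10p that was low in both cancer lines, and ZEB1 was high in both. They are RefSeq sequences on GRCh38.p14, from 250 bases before to 50 after the gene's start, and the circRNA positions in the rest of the text are on hg19. GFRA1 lies at chr10:116274656-116274955 (minus strand), FGFR2 at chr10:121598395-121598694 (minus strand), DHTKD1 at chr10:12068704-12069003 (plus strand), OPTN at chr10:13099832-13100131 (plus strand) and ZEB1 at chr10:31318167-31318466 (plus strand). Capitals mark CAGGTG, the E-box that ZEB1 protein is known to bind, searched on both strands.
GFRA1: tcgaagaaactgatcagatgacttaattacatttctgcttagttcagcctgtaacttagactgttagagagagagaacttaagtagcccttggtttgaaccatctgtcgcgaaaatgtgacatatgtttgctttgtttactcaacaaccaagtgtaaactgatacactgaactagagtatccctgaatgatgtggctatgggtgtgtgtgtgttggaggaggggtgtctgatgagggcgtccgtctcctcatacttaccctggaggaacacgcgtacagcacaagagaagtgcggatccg
FGFR2: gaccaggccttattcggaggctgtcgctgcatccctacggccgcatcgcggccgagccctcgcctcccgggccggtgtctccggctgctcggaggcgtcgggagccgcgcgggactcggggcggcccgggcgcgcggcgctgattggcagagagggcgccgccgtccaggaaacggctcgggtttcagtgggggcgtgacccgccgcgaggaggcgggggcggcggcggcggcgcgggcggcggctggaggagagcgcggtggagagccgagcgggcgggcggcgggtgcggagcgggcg
DHTKD1: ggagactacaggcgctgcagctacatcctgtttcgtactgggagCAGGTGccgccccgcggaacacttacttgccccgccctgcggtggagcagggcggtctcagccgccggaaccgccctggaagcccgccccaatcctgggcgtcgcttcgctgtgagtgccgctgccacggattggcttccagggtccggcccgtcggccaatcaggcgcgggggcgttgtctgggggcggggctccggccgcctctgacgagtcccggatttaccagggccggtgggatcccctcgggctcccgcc
OPTN: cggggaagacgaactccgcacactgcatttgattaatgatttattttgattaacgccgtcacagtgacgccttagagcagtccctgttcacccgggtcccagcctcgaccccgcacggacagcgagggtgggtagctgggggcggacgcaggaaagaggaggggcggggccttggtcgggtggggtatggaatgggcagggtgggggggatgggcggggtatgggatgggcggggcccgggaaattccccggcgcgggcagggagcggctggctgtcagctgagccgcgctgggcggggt
ZEB1: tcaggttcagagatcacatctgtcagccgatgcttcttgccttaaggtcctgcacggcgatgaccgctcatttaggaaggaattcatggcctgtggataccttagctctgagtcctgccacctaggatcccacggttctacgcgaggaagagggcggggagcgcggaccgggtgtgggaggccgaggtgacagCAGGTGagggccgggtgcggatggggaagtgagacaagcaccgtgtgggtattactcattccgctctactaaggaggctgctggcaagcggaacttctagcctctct
CAGGTG was found once in the DHTKD1 window, from base 45, and once in the ZEB1 window, from base 194. The other 3 windows did not hold this motif. Of all 27305 promoters of the same length 20.6% held it, as did 23 of the 153 promoters that matched a chromosome 10 host gene (142 by symbol, 11 by synonym). The TATA box TATAAA, searched likewise, was in none of the 5 windows and in 12.0% of all promoters. A GC content of 79.3% set FGFR2 apart from GFRA1 at 45.0%, against a median of 66.0% over the 153. These letters describe the windows only, since the libraries held no measure of transcription.

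Chromosome 10 circRNAs collected 3984 of 126041 circRNA reads in J82, 3566 of 108574 in T24 and 5151 of 128055 in SV-HUC-1. As a share of all circRNA reads this was 3.16% in J82 (exact 95% binomial interval 3.07 to 3.26) and 3.28% in T24 (3.18 to 3.39), against 4.02% in SV-HUC-1 (3.92 to 4.13). Both cancer lines lay below SV-HUC-1 without overlap of these intervals, which hold counting error only. The chromosome was chosen by folds from the same reads, so the intervals do not measure how unusual the gap is. In bulk RNA, fewer cells that hold a circRNA and fewer copies per cell cannot be told apart. Of 11 epithelial marker host genes, 9 gave circRNA reads in J82 (446 reads), 3 in T24 (29 reads) and all 11 in SV-HUC-1 (1069 reads). Of 8 mesenchymal markers, 8 gave reads in J82 (140), 6 in T24 (103) and 8 in SV-HUC-1 (388). The blood and endothelial markers gave reads for 1 of 3, with 11, 44 and 33 reads in J82, T24 and SV-HUC-1, and the 4 neuronal markers gave 63, 468 and 20. The part of these differences between the lines in the results below was not tested.

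The chromosome 10 set resembled the rest of the list in its make-up. A circBase ID was given for 389 of the 437 (89.0%), against 86.1% elsewhere, and the median distance between the junction ends was 7305 bases, against 6003. All 3 libraries held reads of 284 circRNAs (65.0%). Only J82 held reads of 16, only T24 of 15 and only SV-HUC-1 of 12. A single circRNA was listed for 70 host genes and 2 for 57, while DOCK1, an activator of the small GTPase Rac, gave 15, the cell polarity scaffold PARD3 gave 12 and DHTKD1, a mitochondrial enzyme of lysine breakdown, gave 11. By mean CPM over the 3 libraries, the most abundant circRNA was that of ARHGAP12, a GTPase-activating protein (hsa_circ_0000231, 32197099 to 32199491, minus strand), at 4.905 CPM (a level adjusted for library size) in J82, 2.855 in T24 and 2.51 in SV-HUC-1. It led in J82 alone. DNA2, a nuclease and helicase of replication, led in T24 with hsa_circ_0006151 at 1.12 CPM in J82, 3.56 in T24 and 2.71 in SV-HUC-1. The ubiquitin chain protease ZRANB1 led in SV-HUC-1, with hsa_circ_0000268 at 1.08 CPM in J82 and 1.64 in T24, against 3.99 in SV-HUC-1. The other 7 of the 10 most abundant came from FBXW4, GDI2, SMC3, FAM53B, LARP4B, CCSER2 and ATP5C1. The 10 together held 20.4% of the chromosome 10 reads in J82, 18.8% in T24 and 19.8% in SV-HUC-1.

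Host gene levels were the summed CPM of a gene's circRNAs, and folds were differences of log2(CPM + 0.0234), where 0.0234 CPM is 1 read in T24, the shallowest library. A host gene entered a comparison with at least 10 reads in 1 of its libraries, and was called higher or lower from 2-fold. At least 10 reads in 1 of the 3 lines were reached by 125 of the 181 host genes, and the other 56 enter no fold below. In J82, 15 of 115 chromosome 10 host genes exceeded their SV-HUC-1 level at least 2-fold and 32 were at least 2-fold lower (13.0% and 27.8%). Over all host genes the same call was reached by 18.4% and 19.5%. In T24, 20 of 115 were higher and 37 lower than in SV-HUC-1 (17.4% and 32.2%), against 18.7% and 22.1% over all host genes. The median chromosome 10 fold was -0.44 in J82 and -0.58 in T24, while all host genes together had -0.03 and -0.04. Among 23 chromosomes this was the 2nd lowest median in J82, after chromosome 22 at -0.61, and the lowest in T24, before chromosome 5 at -0.41. Host genes below 0 made up 65.2% of chromosome 10 in J82 and 60.0% in T24, against 51.4% and 51.6% over all host genes.

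The medians were also taken without the leading circRNA of each host gene. Without the most abundant circRNA of every host gene, 52 chromosome 10 host genes still passed the filter in J82 and 53 in T24, and their medians were 0.02 and -0.06. The same host genes with all their circRNAs had medians of -0.31 in J82 and -0.19 in T24, so in T24 most of the move from -0.58 came with the restriction to these genes, while in J82 most of the move from -0.44 came with leaving out the leading circRNA. On their leading circRNA alone they had -0.53 and -0.23. Over all chromosomes, leaving out the leading circRNAs kept 1300 host genes in J82 and 1277 in T24. Their medians were -0.02 and -0.09, so after this removal the chromosome 10 medians no longer lay below those of all chromosomes. J82 and T24 share the SV-HUC-1 library as their comparison, so the low medians in both are not 2 independent observations. Counted as single circRNAs, 22 of 167 were higher and 63 lower in J82, where 22.9% and 23.3% of all circRNAs were. In T24, 29 of 169 were higher and 59 lower, where 21.4% and 27.3% of all circRNAs were.

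**Figure D1:**
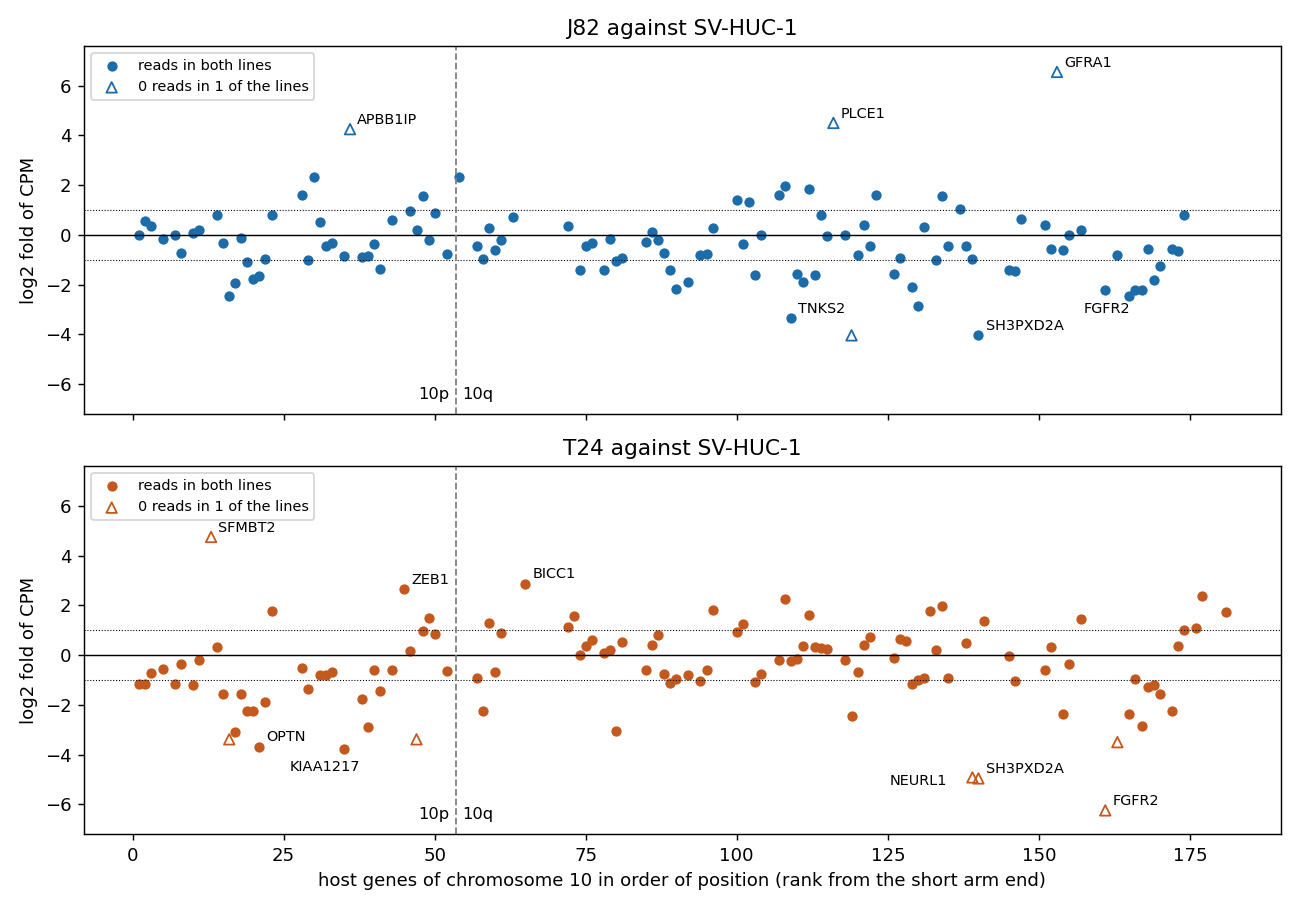
Log2 fold of summed CPM for each host gene past the read filter (vertical axis), in order of position on chromosome 10 (horizontal axis, rank of the gene), for J82 above and T24 below, each against SV-HUC-1. Dotted lines mark 2-fold, the dashed line the border between 10p and 10q, and triangles genes with 0 reads in 1 of the 2 lines; in T24, 29 of 37 genes of 10p lie below 0, and GFRA1 in J82 is the highest point.

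The median folds of the arms differed in opposite ways in the cancer lines. The split was set at 40 Mb, in the gap between ZNF248 and ZNF33B. In J82, the 37 host genes of 10p had a median fold of -0.16, with 4 higher and 7 lower (10.8% and 18.9%). The 78 of 10q had -0.57, with 11 higher and 25 lower (14.1% and 32.1%), where all host genes had 18.4% and 19.5%. In T24, 10p had a median of -0.79, with 4 higher and 18 lower of 37 (10.8% and 48.6%). T24 had -0.06 on 10q, with 16 higher and 19 lower of 78 (20.5% and 24.4%), where all host genes had 18.7% and 22.1%. The lower share of 10p in J82 and both shares of 10q in T24 thus lay near those of all host genes. Set against each other, J82 exceeded T24 on 10p, with a median fold of 0.86 and 16 of 35 higher, and lay below T24 on 10q, with a median of -0.40 and 26 of 74 lower. In J82 against T24 over the whole chromosome, 29 of 109 host genes were higher and 30 lower (26.6% and 27.5%), where 20.7% and 16.6% of all host genes were. The chromosome-wide median in that comparison was 0.17, 16th from the lowest among the 23 chromosomes. By reads, 10p held 42.2% of the chromosome's circRNA reads in J82 (40.6 to 43.7) and 30.3% in T24 (28.8 to 31.9), against 33.6% in SV-HUC-1 (32.35 to 34.95).

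In windows of 10 Mb, numbered from the end of the short arm, T24 had 12 windows with at least 3 host genes past the filter. Their medians were below 0 in 6 and above 0 in 6, and reached 2-fold in 4. Window 2 was lowest at -1.73, with 9 of 12 genes at least 2-fold lower, and windows 3 and 13 stood at -1.12 and -1.54. Window 14, at the end of the long arm, had the highest median, a log2 fold of 1.404. Its 4 genes were GLRX3, a glutaredoxin, PPP2R2D, a regulatory subunit of protein phosphatase 2A, BNIP3, a mitophagy receptor, and MTG1, a mitochondrial GTPase, and each was at least 2-fold higher in T24. They gave 74 reads in T24 and 26 in SV-HUC-1. Each had fewer than 10 reads in SV-HUC-1 (8, 6, 4 and 8) and passed the filter through T24 alone. Entry of this kind favours higher folds, so the median and the 4 calls partly follow from the filter. The intervals of GLRX3 (0.870 to 5.96) and PPP2R2D (0.810 to 7.58) include 1. Without a filter, all 10 circRNAs of the window gave 86 reads in T24 and 37 in SV-HUC-1 (ratio 2.71, 1.82 to 4.10). J82 had 11 such windows, 8 below 0 and 3 above, and none reached a 2-fold median, whereas 5 windows of 5 Mb did. Window 2 was also the lowest in J82, at -0.98, and window 9 the highest at 0.66.

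**Figure D2:**
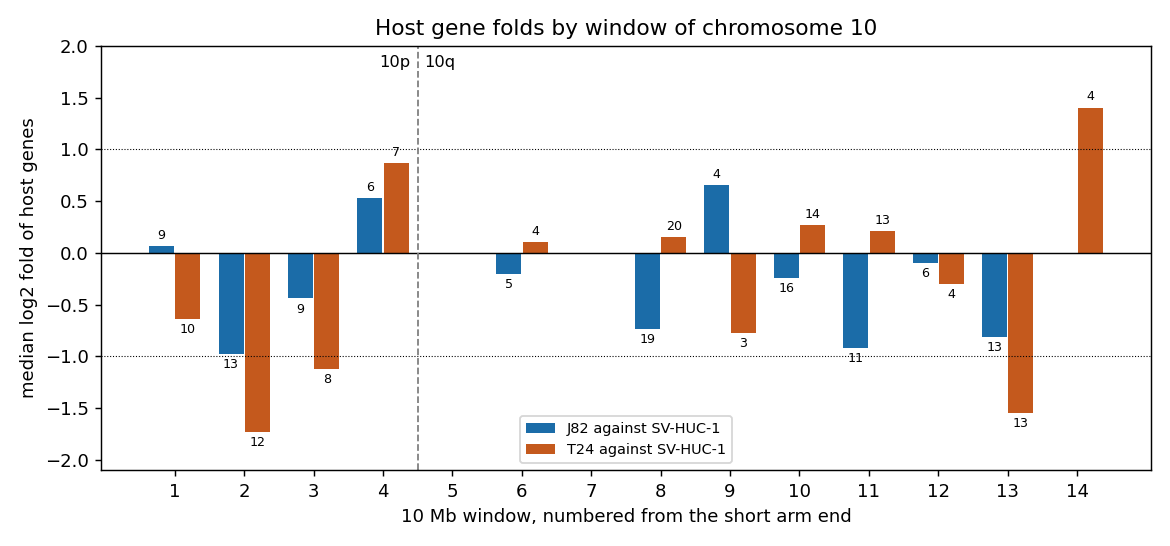
Median log2 fold of the host genes in each 10 Mb window (vertical axis) by window number from the short arm end (horizontal axis), J82 left and T24 right in each window, both against SV-HUC-1. Numbers give the host genes per window, windows with fewer than 3 are left blank, and dotted lines mark 2-fold, which T24 passes in windows 2, 3, 13 and 14 and J82 in none at this window size.

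Within window 2, 8 neighbours from USP6NL to MCM10 (11.52 to 13.23 Mb) were all lower than in SV-HUC-1 in both cancer lines. This stretch and the others below were picked after their values were seen. The 8 genes gave 238 reads in J82, 85 in T24 and 512 in SV-HUC-1. The summed CPM ratio was 0.490 in J82 (95% counting interval 0.418 to 0.572, from the reads of the 2 libraries) and 0.194 in T24 (0.152 to 0.244). In J82, 5 of the 8 were at least 2-fold lower, and in T24 all 8. DHTKD1 had 76 reads in J82 and 30 in T24, against 171 in SV-HUC-1, and OPTN, an autophagy receptor, had 30 and 6, against 103. The OPTN difference in J82 lay in hsa_circ_0007242, with 22 reads in J82 and 5 in T24, against 97, while hsa_circ_0093106 had 8 and 1, against 6. UPF2, a factor of nonsense-mediated decay, had 57 reads in J82 and 18 in T24, against 65, so that its J82 level was close to SV-HUC-1 (ratio 0.924, interval 0.636 to 1.34). USP6NL, a regulator of the traffic GTPase RAB5, was likewise low mainly in T24, with 25 reads in J82 and 9 in T24, against 33. The replication factor MCM10 had 38 reads in J82 and 18 in T24, against 80, and PROSER2 had 9 and 3, against 39. ECHDC3, an enoyl-CoA hydratase domain protein, had 1 read in J82 and 0 in T24, against 11. CDC123, an assembly factor of translation factor eIF2, had 2 and 1, against 10. Of the 28 circRNAs of the stretch, 15 passed the filter, and 14 of these were below 0 in J82 and 15 in T24. The exception in J82 was hsa_circ_0003978 of USP6NL, with 17 reads in J82 and 6 in T24, against 12. The stretch was chosen because its host genes were below 0, so these counts largely follow from the choice. Of its 28 circRNAs, 6 had at least 10 reads in J82 or T24, so most of the 15 entered through SV-HUC-1 alone. Such entry favours lower folds.

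The second such stretch lay on 10q, from FGFR2 to FANK1 (123.2 to 127.7 Mb). All 9 host genes past the filter were lower in both cancer lines, 6 at least 2-fold in J82 and 8 in T24. Of the 9, 4 had at least 10 reads in J82 or T24. The rest entered through SV-HUC-1 alone, which favours lower folds. The 12 host genes of the stretch gave 272 reads in J82, 210 in T24 and 744 in SV-HUC-1. The ratios were 0.385 in J82 (0.334 to 0.443) and 0.329 in T24 (0.281 to 0.384). The fibroblast growth factor receptor FGFR2 had its lowest fold in T24, with 17 reads in J82, 0 in T24 and 87 in SV-HUC-1. In J82 the lowest fold of the stretch was that of CHST15, at -2.47, against -2.21 for FGFR2. ZRANB1 had 60 reads in J82 and 83 in T24, against 224, and the transcriptional corepressor CTBP2 had 78 and 57, against 196. CHST15, a chondroitin sulfotransferase, had 2 and 2, against 17, and the phosphatase LHPP 4 and 2, against 24. FAM53B had 87 reads in J82 and 48 in T24, against 136, and was within 2-fold in J82. OAT, the mitochondrial ornithine aminotransferase, had 3 and 8 reads, against 19, and was within 2-fold in T24. The next gene, DOCK1, ended the stretch in T24, with 191 reads, against 174 in SV-HUC-1, while its 105 reads in J82 extended it there.

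On 10p the low stretch in T24 was long. From ZMYND11 to WAC (0.226 to 28.9 Mb), 27 of 30 host genes past the filter were below 0 in T24, and 17 of them were at least 2-fold lower. The 3 above 0 were SFMBT2, ATP5C1 and FRMD4A. In J82, 18 of 31 were below 0 in the same stretch and 7 at least 2-fold lower. Its 43 host genes gave 1239 reads in J82, 627 in T24 and 1449 in SV-HUC-1, at ratios of 0.901 in J82 (0.834 to 0.973) and 0.505 in T24 (0.459 to 0.555). The chromatin reader ZMYND11 had 41 reads in J82 and 16 in T24, against 43, and DIP2C had 53 and 14, against 38. WDR37 had 130 reads in J82 and 89 in T24, against 153, and LARP4B, an RNA-binding protein, had 145 and 61, against 118. Beyond WAC the direction turned: of the 7 genes of window 4, 5 were above 0 in T24, and PARD3 and ZEB1 were at least 2-fold higher. KIF5B, the heavy chain of kinesin-1, went the other way there, with 0 reads in T24 and 12 in J82, against 11 in SV-HUC-1.

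Other runs of neighbours on 1 side of SV-HUC-1 were shorter or shallower. In J82, the 8 genes from DNA2 to ASCC1 (70.20 to 73.97 Mb) were all below 0, with 204 reads in J82 against 444 in SV-HUC-1 (ratio 0.484, interval 0.408 to 0.573), and 3 of them reached 2-fold. In T24, 9 genes from TIMM23, whose near copy TIMM23B may share its reads, to HK1 were all above 0, with 543 reads in T24 and 461 in SV-HUC-1 (1.37, 1.21 to 1.56). Neighbours past the filter lay on the same side of SV-HUC-1 in 77 of 114 cases in T24 (67.5%), against 54.8% on the other chromosomes. In J82 it was 62 of 114 (54.4%), against 56.7%. The median distance between neighbours in T24 was 1.10 on the log2 scale and that between any 2 genes of the chromosome 1.51, while the other chromosomes had 1.13 and 1.19. In J82 these were 1.05 and 1.22 on chromosome 10 and 1.04 and 1.12 elsewhere, so order along the chromosome showed more in T24.

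The highest folds in J82 were of genes with no read in SV-HUC-1. GFRA1, the co-receptor of the neurotrophic factor GDNF, had 103 reads in J82 (2.18 CPM), 1 in T24 (0.0234 CPM) and 0 in SV-HUC-1. Against the floor of 3 reads that a count of 0 allows, J82 exceeded SV-HUC-1 at least 36.2-fold. PLCE1, a phospholipase C, had 24 reads in J82 and 0 in the other two lines (at least 8.43-fold above SV-HUC-1), and APBB1IP, an adaptor of the GTPase RAP1 in integrin signalling, had 20 and also 0 in the other two (at least 7.02-fold). These 3 genes were the only ones of the chromosome past the filter in J82 with 0 reads in SV-HUC-1. The zinc finger gene ZNF33B, whose close copies may share reads, had 19 reads in J82, 9 in T24 and 3 in SV-HUC-1. PTPLA, a fatty acid dehydratase, had 14 in J82, 0 in T24 and 2 in SV-HUC-1 (ratio 7.37 in J82, interval 1.69 to 66.9). HECTD2, a ubiquitin ligase, had 22 reads in J82 and 24 in T24, against 5, and the insulin-degrading enzyme IDE had 20 and 15, against 5.

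At the other end, SH3PXD2A, the scaffold TKS5 of podosomes and invadopodia, had 1 read in J82 and 0 in T24, against 35 in SV-HUC-1. The ratio in J82 was 0.0301 (7.41e-04 to 0.179), and T24 was at least 10.0-fold lower. The tankyrase gene TNKS2 was low in J82 alone, with 2 reads, while T24 had 23 and SV-HUC-1 32. BTAF1, a regulator of TATA-binding protein, lay next to it and had 28 reads in J82 and 69 in T24, against 90. DNA polymerase lambda, POLL, had 1 read in J82 and 6 in T24, against 15. SH3PXD2A, TNKS2 and POLL entered the J82 comparison through SV-HUC-1 alone, which favours lower folds.

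The lowest fold in T24 was that of FGFR2, at least 24.9-fold lower than in SV-HUC-1 against the same floor (lower limit of the exact interval 19.8). NEURL1, a ubiquitin ligase, had 16 reads in J82 and 0 in T24, against 34 (at least 9.72-fold lower in T24). KIAA1217 had 16 and 1, against 31, and TSPAN15, a tetraspanin partner of the protease ADAM10, had 21 and 4, against 47. The ratio for OPTN in T24 was 0.0679 (0.0244 to 0.153). In all, 6 genes past the filter had 0 reads in T24: ECHDC3, KIF5B, NEURL1, SH3PXD2A, FGFR2 and PLEKHA1. SFMBT2, a Polycomb group protein, was highest in T24, with 8 reads in J82, 26 in T24 and 0 in SV-HUC-1 (at least 10.1-fold higher in T24). The RNA-binding protein BICC1 had 8 reads in J82 and 19 in T24, against 2 (ratio 11.1 in T24, 2.67 to 98.1). ZEB1 had 7 and 16, against 2 (9.33 in T24, 2.19 to 83.7), with further circRNAs outside its host gene total. BNIP3 had 5 and 22, against 4, and the nucleolar protein NOLC1 had 16 and 20, against 5. KAT6B, a histone acetyltransferase, had 13 reads in J82 and 36 in T24, against 11 (3.82 in T24, 1.90 to 8.31). FRMD4A, a polarity scaffold, had 22 and 41, against 13. SFMBT2, BICC1, ZEB1, BNIP3 and NOLC1 had fewer than 10 reads in SV-HUC-1 and entered the T24 comparison through T24 alone. Such entry favours higher folds, so their ratios and intervals only describe chosen genes. The low genes of this paragraph entered through SV-HUC-1 alone, which favours lower folds.

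**Figure D3:**
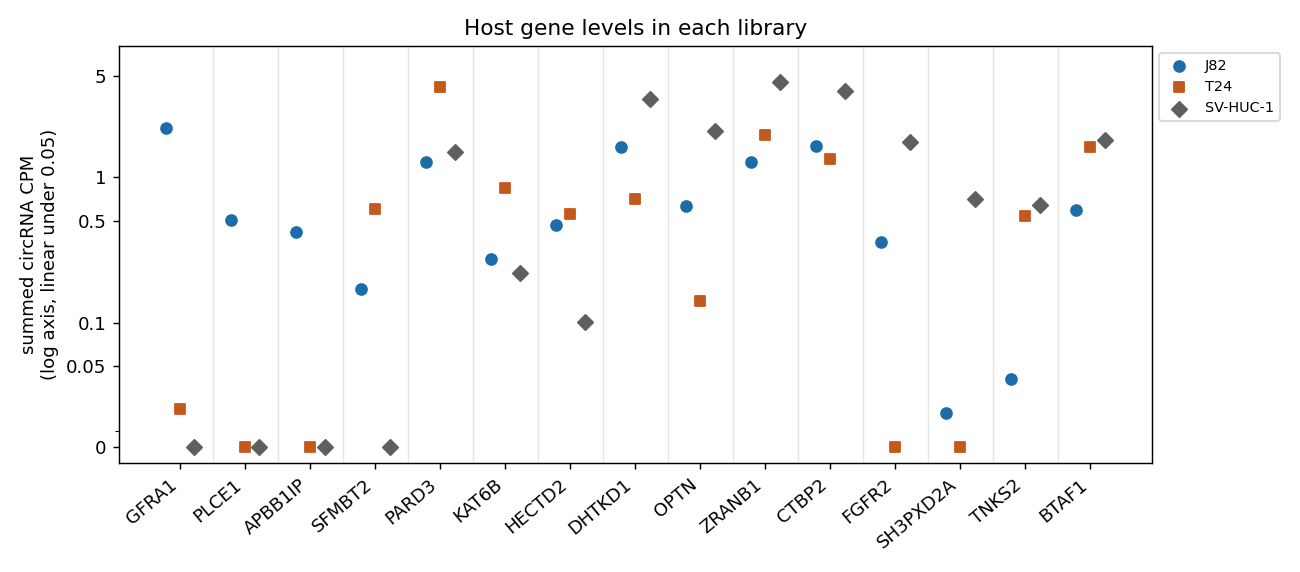
Summed circRNA CPM (vertical axis, logarithmic above 0.05 and linear below) of 15 host genes of chromosome 10 in J82, T24 and SV-HUC-1, 1 point per library and no error bars. GFRA1, PLCE1 and APBB1IP lie at or near 0 outside J82, FGFR2 and SH3PXD2A at 0 in T24, and TNKS2 is low in J82 alone.

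Further genes were also at least 2-fold lower in each cancer line than in the SV-HUC-1 library that both share. MASTL, the mitotic kinase Greatwall, had 13 reads in J82 and 11 in T24, against 37, and the RAS pathway scaffold SHOC2 had 8 and 10, against 25. P4HA1, a collagen prolyl hydroxylase, had 9 and 10, against 27, and TSPAN14, another ADAM10 partner, had 9 and 12, against 31. Some calls lay close to 2-fold: RSU1 in J82 was at -1.005 and C10orf76 at -1.010, while MCM10 at -0.98 in J82 and POLL at -0.99 in T24 fell short.

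In J82 against T24, GFRA1 had a ratio of 93.0 (16.3 to 3710), and PLCE1, APBB1IP and FGFR2 had 0 reads in T24 (at least 7.23-fold, 6.02-fold and 5.12-fold higher in J82). The lowest were MGEA5, the enzyme that removes O-GlcNAc, with 0 reads in J82 against 17 in T24 (at least 6.27-fold lower), and CWF19L1, with 0 and 12 (at least 4.43-fold lower). TNKS2 followed at a ratio of 0.0785 and CPEB3, a regulator of translation, with 3 and 17 reads at 0.159. TNKS2, BTAF1, CPEB3 and KIF11, a mitotic kinesin, lie within 93.58 to 94.41 Mb, and each was at least 2-fold lower in J82 than in SV-HUC-1, while T24 had 23, 69, 17 and 13 reads, against 32, 90, 15 and 12 in SV-HUC-1. IDE lies between CPEB3 and KIF11 and went the other way in J82. DNA2, DDX21 and SMC3, a subunit of the cohesin ring, showed the same contrast, with 75, 26 and 29 reads in J82, 182, 68 and 71 in T24 and 210, 74 and 84 in SV-HUC-1.

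Host gene totals can hide circRNAs that differ among themselves. GFRA1 in J82 rested on hsa_circ_0005239 (117849251 to 117856275, minus strand), with 92 of its 103 reads. FGFR2 had 4 circRNAs, with 3, 6, 6 and 2 reads in J82, 0 for each in T24, and 7, 12, 32 and 36 in SV-HUC-1, so all 4 were lower.

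PARD3 had 60 reads in J82 and 179 in T24, against 74 in SV-HUC-1 (2.82 in T24, 2.14 to 3.75). A circRNA without a circBase ID at 34661425 to 34667034 (minus strand) gave 68 of the T24 reads and none in the other two libraries (at least 26.4-fold above SV-HUC-1). Without it T24 had 111 reads and a ratio of 1.749 (1.29 to 2.38), below 2-fold. Other PARD3 circRNAs differed too: hsa_circ_0018168 had 28 and 34 reads, against 38, and hsa_circ_0018184 had 10 and 23, against 3. DHTKD1 behaved more evenly. Of its 11 circRNAs, 8 share the start at 12123470, with 57 reads in J82 and 27 in T24, against 130, and the other 3 had 19 and 3, against 41. The 6 past the filter were all below 0 in both lines.

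The circRNAs of DOCK1 differed by their start. The 4 circRNAs that share the start at 128768965 had 32 reads in J82 and 66 in T24, against 88 in SV-HUC-1 (0.383 in J82, 0.247 to 0.580), while the other 11 had 73 and 125, against 86 (0.894, 0.645 to 1.24). In T24 the same groups stood at 0.875 (0.626 to 1.22) and 1.69 (1.28 to 2.26). HERC4, a ubiquitin ligase, gave 9 circRNAs, with 73 reads in J82 and 113 in T24, against 60. Among them hsa_circ_0093898 had 15 reads in J82 and 3 in T24, against 3, hsa_circ_0005190 had 2 and 11, against 2, and hsa_circ_0093921 had 0 and 2, against 11. WDR37, PARD3 and FAM53B also had circRNAs at least 2-fold on both sides of SV-HUC-1 in J82. In FAM53B, hsa_circ_0008456 had 16 reads in J82 and 5 in T24, against 3, while hsa_circ_0005734 had 5 and 4, against 21. CTBP2 was lower throughout in T24, where its 5 circRNAs past the filter ranged from -2.25 to -0.73.

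**Figure D4:**
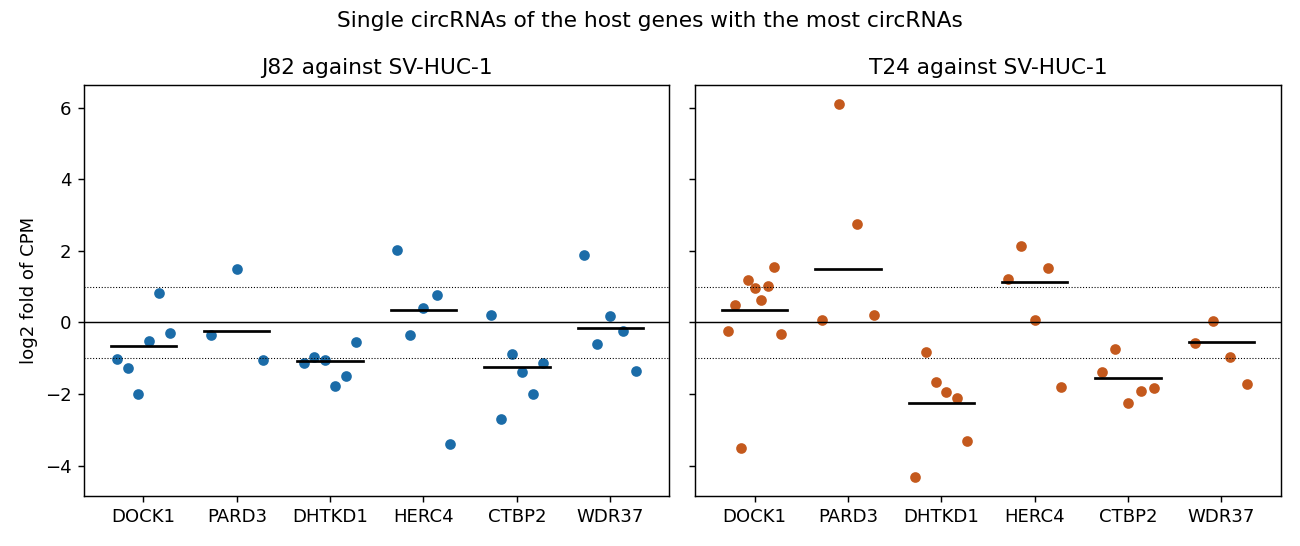
Log2 fold of CPM for single circRNAs past the read filter (points, ordered by start within each host gene) and of the host gene total (black bar) for the 6 host genes with the most circRNAs, J82 left and T24 right, each against SV-HUC-1. DHTKD1 points are all below 0 in both lines, while HERC4 has points beyond 2-fold (dotted lines) on both sides in both lines.

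Gene lists of the chromosome, chosen with earlier results of these data known, gave the following counts, to be read beside the background shares above. In the cohesin, replication, repair and mitosis list, 16 of 32 genes had a circRNA. Of the 13 past the filter in J82, 3 were higher and 7 lower, with a median fold of -1.36, and of the 12 in T24, 0 were higher and 6 lower, with a median of -0.83. CDC123, MASTL and FAM178A, which works with the SMC5/6 complex, were lower in both, and TNKS2, DNA2, KIF11 and SMC3 in J82 alone. The 3 higher in J82 were FAM188A, with 85 reads in J82 and 17 in T24, against 29, CCDC7, with 36 and 21, against 12, and MMS19, a factor of iron-sulfur protein assembly, with 11 and 6, against 3. FAM188A, a deubiquitinase, CCDC7 and KIF5B, which was lower in T24, are not known as replication or mitosis genes. CDC123, lower in both lines, is the eIF2 assembly factor described above. Among receptors, ligands and morphogen signalling, 6 of 27 had a circRNA. GFRA1 was higher and FGFR2, TSPAN14 and TSPAN15 were lower of 5 in J82 (median -1.05), and FGFR2, TSPAN14 and TSPAN15 were also lower of 4 in T24, with 0 higher (median -2.07).

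In the polarity, adhesion and actin list (14 of 34 with a circRNA), 1 was higher and 2 lower of 9 in J82 (median -0.22), and 2 were higher and 4 lower of 8 in T24 (median -0.43). VCL, the adhesion protein vinculin, had 16 reads in J82 and 12 in T24, against 30, and ABI1, a subunit of the WAVE complex, had 23 and 11, against 46. Of the kinases and phosphatases (18 of 32), 3 were higher and 1 lower of 9 in J82 (median 0.02), and 2 were higher and 2 lower of 9 in T24 (median -0.62). PLCE1 and PTPLA, which are neither kinases nor protein phosphatases, were among the 3 higher in J82. SLK and PPP2R2D were the higher ones in T24, with 17 and 12 reads, against 7 and 6 in SV-HUC-1. For chromatin and transcription (14 of 38), 1 was higher and 2 lower of 8 in J82 (median -0.17), and 3 were higher and 2 lower of 9 in T24 (median -0.16). RNA binding and decay (15 of 32) had 1 higher and 3 lower of 8 in J82 (median -0.28) and 2 higher and 1 lower of 10 in T24 (median 0.24). The RNA helicase DDX21 was lower in J82 alone, and UPF2 in T24 alone.

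The ubiquitin pathway list (12 of 20) had 1 higher and 2 lower of 9 in J82 (median 0.31) and 2 higher and 3 lower of 9 in T24 (median -0.80). HECTD2 was higher and ZRANB1 lower in both cancer lines. The others lower in T24 were NEURL1 and USP6NL, which is named after a ubiquitin protease but acts on RAB5, as above. The membrane traffic list (16 of 33) had 0 higher and 0 lower of 13 in J82 (median -0.02), and 0 higher and 1 lower of 12 in T24, DIP2C (median -0.60). DIP2C, WDR37, the mitochondrial protease YME1L1 and LARP4B, which the RNA list also counts, are not known as membrane traffic genes. GDI2, which recycles RAB proteins, had 118 reads in J82 and 81 in T24, against 108, and TBC1D12 had 60 and 48, against 64. CCAR1, a coactivator named in the study's title, had 29 reads in J82 and 52 in T24, against 39 (ratios 0.783, 0.467 to 1.30, and 1.56, 1.01 to 2.42), within 2-fold in both. TCF7L2 and BMPR1A, known signalling genes of the long arm, had no circRNA among those listed.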

How the data were processed

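Per the labels' protocols, total RNA of each line was depleted of ribosomal RNA, digested with RNase R and made into 1 directional library. The authors deposited 1 table of circRNAs giving each one's junction position, database IDs and host gene, and its CPM after TMM normalization. The submitters' processing notes name hg19 as the build and list edgeR, STAR, RSEM 1.2.15 and Bowtie2 2.1.0 without their roles. The back-splice caller, and whether starts count from 0 or 1, are not given in the sources used here. The J82 and T24 value columns matched a line by name. The remaining value column is headed Sv-Hvc-1 and was taken as SV-HUC-1, the only line left.

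Dividing each column by its smallest positive value gave whole numbers for 100% of entries (tolerance 0.01), and these were used as reads. One read was worth 0.0211 CPM in J82, 0.0234 in T24 and 0.0201 in SV-HUC-1. Each listed chromosome 10 circRNA had at least 5 reads in 1 library. Reads and CPM were summed by host gene as the table names it. Calls were made at 2-fold on log2(CPM + 0.0234), which understates low genes, with at least 10 reads in 1 library compared. Ratios of CPM carry exact 95% Clopper-Pearson intervals on the reads of both libraries. For folds given as at least, a library with 0 reads was set to a floor of 3 and the other count was taken as exact. Such a fold lies above the lower limit of the exact interval. Reads have no molecular identifiers, so intervals and floors cover counting error only. Windows took a host gene by the middle of its circRNAs' span. Exons and introns were not assigned. With 1 library per line, J82 and T24 together against SV-HUC-1 were fitted over all host genes with limma 3.58.1 and, as an alternative, edgeR 4.0.16, the lone SV-HUC-1 library being assumed to vary like the others. Promoters came from RefSeq (GRCh38.p14). Scripts ran in Python 3.11.15 (numpy 2.4.6, pandas 2.3.3, scipy 1.17.1, matplotlib 3.10.9) and R 4.3.3 and were tested on simulated data.

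The members, lists, windows and alternatives were chosen with earlier results of these data known. Named host genes were the 8 top and 8 bottom folds of each cancer line, the 6 with the most circRNAs, those of the extreme windows, those with circRNAs on both sides of 2-fold, the 8 that differed most between J82 and T24, 9 known genes and the extremes of 8 lists, beside the 10 most abundant circRNAs. Genes of the runs were chosen after their values were seen. Some genes that this rule names are not reported here. Alternatives were other filters, pseudocounts, scalings, windows and units, an exact binomial test, and leaving out the leading circRNA of each host gene.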

Additional observations from a re-analysis of the deposited data

Results flagged for a closer look

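Reads of ZEB1 lay outside the host gene totals. Of the 11 chromosome 10 circRNAs without an annotated host gene, 5 carry a circBank name of ZEB1, and they gave 40 reads in J82 and 66 in T24, against 2 in SV-HUC-1. They entered no host gene comparison in the report, which is why they were singled out. The 2 circRNAs that the host gene column assigns to ZEB1 had 7 reads in J82 and 16 in T24, against 2. With all 7, ZEB1 had 47 reads in J82 and 82 in T24, against 4, at ratios of 12.4 in J82 (95% counting interval 4.53 to 47.3) and 23.9 in T24 (8.99 to 89.8). The most abundant of the 5 were hsa_circ_0000228, with 19 reads in J82 and 18 in T24, against 1, and hsa_circ_0003793, with 14 and 33, against 1. The other 6 circRNAs without a host gene had 19 reads in J82 and 19 in T24, against 41. ZEB1 was also 1 of the 8 mesenchymal markers, whose summed reads were 140 in J82 and 103 in T24, against 388 in SV-HUC-1, so it did not follow the list as a whole.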

How the results depend on the processing

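No paired analysis was possible because each line has 1 library. With no read filter, the higher count in J82 was 26, T24 had 31 higher and 58 lower, and J82 against T24 50 and 46. At 20 reads, the higher counts were 9 in J82 and 13 in T24, and J82 against T24 had 18 and 19. The shares over all host genes were not taken at these filters, so these counts have no background beside them. Without the leading circRNA of each host gene, J82 had 8 higher and 15 lower of 52, with a median of 0.021. T24 had 12 and 13 of 53, and J82 against T24 14 and 14 of 53. Over all host genes this removal gave 257 higher and 256 lower of 1300 in J82 and 244 and 305 of 1277 in T24. J82 against T24 had 281 and 218 of 1236. With the leading circRNA left out, OPTN turned to 0.42 and NT5C2 to -0.20 in J82. Single circRNAs gave 63 lower in J82 and 59 in T24. Windows of 5 Mb gave 5 with a 2-fold median in J82, and windows of 20 Mb gave 2 in T24. The T24 share of reads was 3.13% over circRNAs with at least 10 reads. The sign of the difference between arms was the same under every alternative run. Over all host genes, limma called 0 for both cancer lines against SV-HUC-1 (149 at an unadjusted p under 0.05) and edgeR called 41 at an adjusted p under 0.05, 3 of them on chromosome 10, with 1 residual degree of freedom. Depth limits the 56 host genes under 10 reads in every line, which entered no comparison in the report.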
